A study of Homo sapiens with 30 samples.

Results

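The 2′-5′-oligoadenylate synthetase (OAS) family comprises OAS1, OAS2, OAS3 and the OAS-like gene OASL. These 4 genes were taken by symbol from the 61471 symbols in each of the separate expression tables of U87-MG (U87) and U251-MG (U251), both established lines of human glioblastoma cells, wild type by their labels. RNA was sequenced in 30 libraries, with 3 libraries labelled as biological replicates for each of 5 groups in each line. Untreated cells received no IFN-γ, D3, D14 and D28 cells were kept in human IFN-γ for 3, 14 and 28 days, and D28WO cells were kept in it for 14 days and then without it for 14 days. All groups shared the same medium with serum and antibiotics. The labels date the untreated cells to day 3 and give the dose as 1 µg per mL in one field and as 1 µL per mL in another, whereas the study's methods date them to day 0 and give a lower dose. Neither line was re-authenticated after receipt, and both are listed among lines that are often misidentified. Of U87, 13 libraries were used, with D3 and D14 each represented by replicates 2 and 3, because the table carries 1 name on 2 columns. All 15 libraries of U251 were used.

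Cells make OAS proteins to detect double-stranded RNA, a sign of viral infection. On binding it, OAS1, OAS2 and OAS3 join ATP into 2′-5′-linked oligoadenylates (2-5A), a second messenger that sets off antiviral RNA decay, whereas human OASL makes no 2-5A and acts on the RNA sensor RIG-I through ubiquitin-like domains. The genes are classic interferon targets. Type I interferons act on them through a complex that includes STAT2 and IRF9, and IFN-γ induces the factor IRF1, which can also act on them.

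The enzymes sit side by side in the genome and OASL stands apart. In GRCh38 with GENCODE 44, the protein-coding genes OAS1 (chr12:112905856-112933219), OAS3 (chr12:112938051-112976460) and OAS2 (chr12:112978395-113011723) follow each other on the plus strand with gaps of 4831 and 1934 bases, and OASL (chr12:121017763-121039246) lies on the minus strand 8006039 bases further on. A long non-coding RNA on the minus strand (chr12:112907628-113017751) overlaps OAS1, OAS3 and OAS2. It did not exceed 2.23 TPM in any U87 library or 4.65 TPM in any U251 library used, and whether reads were counted by strand is not given in the sources used here, so its reads cannot be told apart from theirs. The protein-coding neighbours of the cluster were low: RPH3A, a vesicle-traffic gene, did not exceed 1.23 TPM, and DTX1, a Notch pathway gene, did not exceed 0.875 TPM in any library used. In U251, DTX1 was at 0.144 to 0.434 TPM untreated and 0.576 to 0.875 TPM at D28. The promoters of OAS1 and OAS3 are shown because these are the members of the cluster that matched by symbol in the promoter table used. The sequences are from RefSeq (GRCh38.p14, plus strand) and run from 250 bases before to 50 bases after the RefSeq transcript start. Capitals mark the run AAACGAAAC, a sequence of the kind bound by interferon regulatory factors, which was picked after the sequences had been read. OAS1 spans chr12:112906712-112907011 and OAS3 spans chr12:112938224-112938523.
OAS1: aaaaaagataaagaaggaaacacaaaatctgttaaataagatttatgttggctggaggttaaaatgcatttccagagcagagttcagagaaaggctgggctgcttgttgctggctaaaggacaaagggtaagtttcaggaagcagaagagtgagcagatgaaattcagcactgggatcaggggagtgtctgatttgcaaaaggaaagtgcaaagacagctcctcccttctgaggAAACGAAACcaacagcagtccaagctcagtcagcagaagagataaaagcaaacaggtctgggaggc
OAS3: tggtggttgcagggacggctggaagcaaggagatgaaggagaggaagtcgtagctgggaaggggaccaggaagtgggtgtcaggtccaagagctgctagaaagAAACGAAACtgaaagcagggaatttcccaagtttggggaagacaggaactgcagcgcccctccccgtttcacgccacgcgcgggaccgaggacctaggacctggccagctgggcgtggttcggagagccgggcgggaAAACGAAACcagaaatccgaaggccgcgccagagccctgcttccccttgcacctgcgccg

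The run AAACGAAAC began 16 bases before the start of OAS1, and 147 and 10 bases before the start of OAS3. Searched on both strands, it occurred in 39 of 35116 promoters of the same length, or 0.111%. The shorter IRF-type core AANNGAAA, which each of these runs also holds, occurred in 22.8% of promoters. In OAS1 this core also began 52 bases before the start, and in OAS3 also 141 bases before it, overlapping the first capitals. TTCNNNGAA, the spacing of a gamma-activated site, was found 168 bases before the start of OAS1, and in 7.66% of promoters, and it did not occur in the OAS3 window. These matches describe letters and were not tested for binding.

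Each library used summed to the same total in TPM, a length-corrected share of a library's transcripts, so the depth of each library cannot be read from these values, and the study's methods give a minimum for all libraries but no depth per library. The lowest correlation of a library with another of its group was 0.959 to 0.972. In U87, genes above 0 numbered 24223 to 25459 in the untreated libraries and 26096 to 28649 in the treated ones, without overlap, and Untreated replicate 3 had the lowest median-ratio size factor, the scaling that brings libraries to a common median, at 0.809. This difference goes with treatment in each U87 comparison with untreated cells, and its part in them was not tested. The numbers of members called against untreated cells, 3 at D3, 2 at D14, 3 at D28 and 1 in the washout group, were the same with these size factors and without Untreated replicate 3. In U251 the untreated libraries had 24450 to 27187 genes above 0 and the treated ones 25633 to 30246. The glial and neural marker list (8 genes) was only in part present: SOX2, a neural stem cell factor, did not exceed 0.411 TPM in U87, and OLIG2 did not exceed 1.33 TPM in U251. The leukocyte marker PTPRC did not exceed 1.47 TPM in either line, and CD68 was the 1 leukocyte marker well above 1 TPM in both. IRF1, an early target of IFN-γ, was at 122 ± 17.1 TPM in the U87 libraries labelled D14 (SD, n = 2), against 133 ± 2.78 TPM in untreated cells (SD, n = 3). The U87 libraries labelled D14 thus lacked the rise of IRF1 that the D3, D28 and D28WO libraries showed, and this touches each comparison with D14 below.

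Untreated cells of the lines held the family in different proportions. In U87, OASL led at 58.2, 62.0 and 59.3 TPM in the 3 untreated libraries, which was 66.1% ± 3.10 of the summed TPM of the family (SD, n = 3). In U251, OASL was at 2.60, 1.92 and 1.36 TPM, or 5.93% ± 1.45. OAS3 led in untreated U251 cells with 64.2% ± 1.13 of the family's TPM. OAS2 was low in both, at 3.16 ± 0.591 TPM in U87 and 2.40 ± 0.765 TPM in U251. The lines' tables were normalized separately, so these levels are set side by side without a test.

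**Figure D1:**
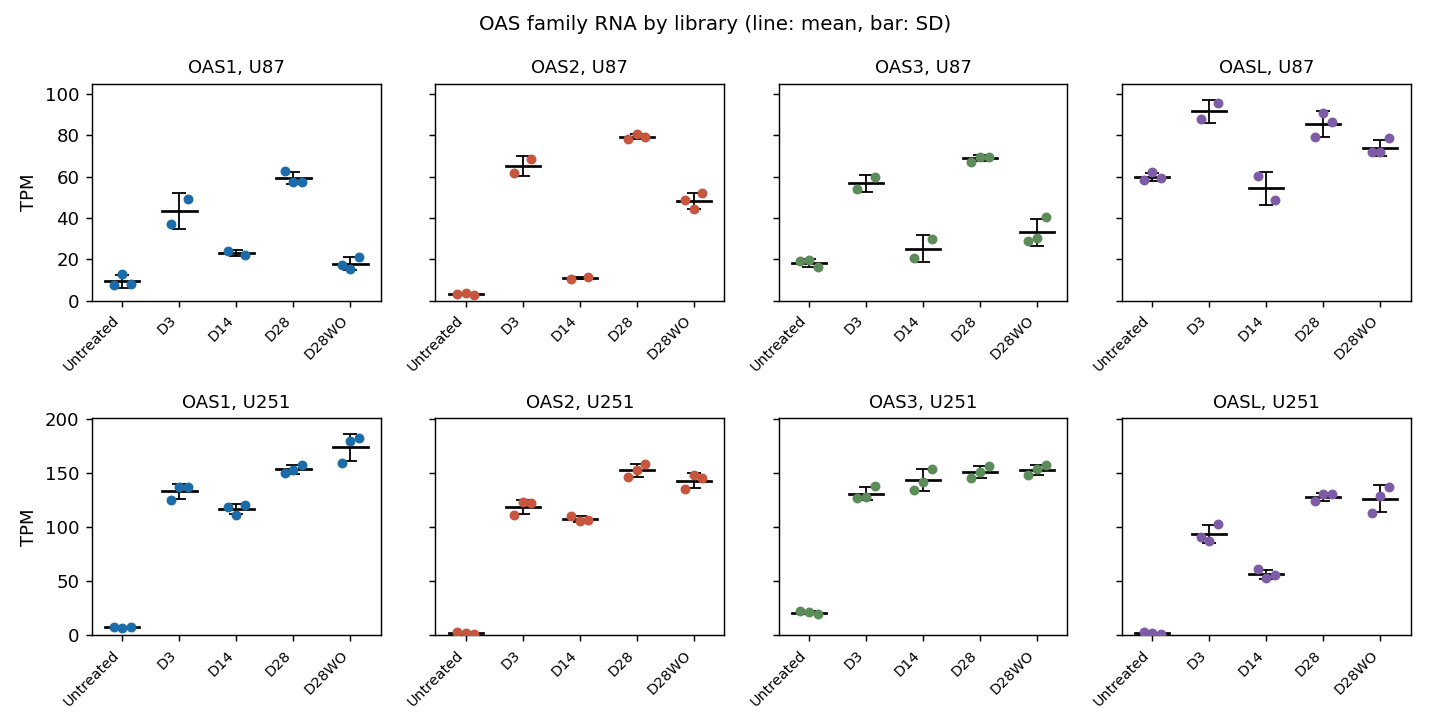
TPM of OAS1, OAS2, OAS3 and OASL (columns) in U87 (upper row) and U251 (lower row), with 1 point per library, a line at the group mean and a bar of 1 SD; the rows have different TPM axes, both from 0. In U87 the D14 points sit low between the D3 and D28 points for each gene, and in U251 the untreated points sit below all treated points.

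Whether IFN-γ changed the family was asked by comparing each treated group with untreated cells of the same line, which are shared by all 4 comparisons. No untreated group was sampled at day 14 or 28. At D14, D28 and D28WO, IFN-γ therefore cannot be separated from time in culture. In a bulk library, more RNA per cell and more cells that make the RNA cannot be told apart. In U87 at D3, OAS1, OAS2 and OAS3 rose and OASL was 0.61 higher on the log2 scale, below the fold limit. A gene was called when its Benjamini-Hochberg adjusted p was under 0.05 and its absolute log2 fold change of TPM + 1 was over 1. Thus 3 of 4 members were called higher at D3, where 5.85% of the 22918 genes tested were. The counts of members called higher were 2 at D14 (1.89% of genes), 3 at D28 (6.77%) and 1 at D28WO (12.8%). The median of all U87 genes was itself 0.15 to 0.25 above untreated on the log2 scale in the 4 comparisons, while the family's median was 1.85, 0.84, 2.22 and 0.85 in the order of the groups.

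OAS2, whose enzyme works as a dimer and makes short 2-5A chains, had the highest fold changes of the family in U87. Its levels were 3.16, 3.75 and 2.57 TPM in untreated cells, 61.6 and 68.7 TPM at D3, and 10.7 and 11.2 TPM at D14. They were 78.0, 80.6 and 79.4 TPM at D28, and 48.5, 44.4 and 51.9 TPM at D28WO. No treated library overlapped the untreated ones, and the D14 libraries lay well below all other treated libraries. The log2 fold change was 4.0 at D3 (95% interval up to 4.29, adjusted p = 1.42e-08), 1.53 at D14 (adjusted p = 0.000266), 4.28 at D28 (adjusted p = 1.77e-09) and 3.57 at D28WO (adjusted p = 6.16e-09). In a fit of the D14 and untreated libraries alone, the D14 call of OAS2 was lost (adjusted p = 0.125). OAS2 was the 1 member still called higher than untreated after washout.

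OAS1, the small single-domain enzyme, was called higher than untreated at D3, D14 and D28 but not at D28WO. Its levels were 7.42, 13 and 7.81 TPM untreated, 37.2 and 49.4 TPM at D3, 24.1 and 22 TPM at D14, 62.6, 57.5 and 57.5 TPM at D28, and 17.3, 15.1 and 21.2 TPM at D28WO. The treated groups all lay above the untreated libraries, although untreated replicate 2 came close to the lowest washout library. The log2 fold change was 2.11 at D3 (adjusted p = 6.92e-05), 1.25 at D14 (adjusted p = 0.0125) and 2.57 at D28 (adjusted p = 3.52e-06). At D28WO it was 0.88 (adjusted p = 0.00337), below the fold limit, and without untreated replicate 2 it was 1.12 and past it. The D14 call was lost without D14 replicate 2 (adjusted p = 0.108) or D14 replicate 3 (adjusted p = 0.0771).

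OAS3, the large enzyme that binds long double-stranded RNA, moved least of the 3 enzymes at D3 and D28. It was at 19.0, 19.7 and 16.1 TPM untreated, 53.8 and 59.8 TPM at D3, 20.7 and 29.7 TPM at D14, 67.2, 69.7 and 69.7 TPM at D28, and 28.6, 30.2 and 40.5 TPM at D28WO. The lower D14 library lay just above the highest untreated one. The log2 fold change was 1.59 at D3 (adjusted p = 0.000106) and 1.86 at D28 (adjusted p = 7.25e-06). It was 0.43 at D14 (adjusted p = 0.167) and 0.81 at D28WO (adjusted p = 0.00129), and neither was called.

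OASL, the member without synthetase activity, started high in U87 and changed little. It was at 87.8 and 95.5 TPM at D3, 60.1 and 48.7 TPM at D14, 79.0, 91.0 and 86.6 TPM at D28, and 71.9, 71.8 and 78.5 TPM at D28WO. The D3, D28 and D28WO libraries lay above the untreated ones and the D14 libraries overlapped them. The log2 fold change was 0.61 at D3 (adjusted p = 0.00232), 0.51 at D28 (adjusted p = 0.00247) and 0.30 at D28WO (adjusted p = 0.0178), all short of the fold limit. Set against the median of all genes, the D28WO difference was 0.051. At D14 it was -0.14 (adjusted p = 0.43).

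In U251, all 4 members rose at every time. Of the 23667 genes tested, 9.72% were called higher at D3 and 4.72% at D14, and 11.9% and 4.07% in the D28 and washout groups. Summed over the family, TPM went from 32.6 ± 2.48 untreated to 476 ± 23.4, 424 ± 12.4, 585 ± 18.9 and 596 ± 35.7 in the D3, D14, D28 and washout groups (SD, n = 3 each), so that the means were 13 to 18.3 times the untreated mean. In U87 the same sum was 1.25 to 3.23 times the untreated mean. In U251 the family's median log2 fold change was thus 4.52, 4.06, 4.84 and 4.91 in the order of the groups, against 0.015 to 0.16 for all genes.

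OAS2 and OASL had the highest fold changes in U251, from the lowest starting levels. OAS2 was at 3.13, 2.48 and 1.61 TPM untreated, 111, 123 and 122 TPM at D3, 110, 106 and 106 TPM at D14, 146, 153 and 158 TPM at D28, and 135, 148 and 145 TPM at D28WO. Its log2 fold change ranged from 5.02 at D14 (adjusted p = 5.66e-12) to 5.52 at D28 (adjusted p = 6.83e-13). OASL, untreated at 2.60, 1.92 and 1.36 TPM, was at 91.2, 87.1 and 103 TPM at D3, 61.2, 53.0 and 55.5 TPM at D14, 124, 130 and 130 TPM at D28, and 113, 129 and 137 TPM at D28WO. The lowest treated library of either gene lay far above its highest untreated one. The log2 fold change of OASL was lowest at D14 (4.30, adjusted p = 5.40e-11) and was 5.02, 5.47 and 5.44 in the other treated groups.

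OAS1 and OAS3 rose from higher starting levels to about the same TPM as OAS2. OAS1 was at 7.26, 6.83 and 7.84 TPM untreated, 125, 137 and 137 TPM at D3, 119, 111 and 120 TPM at D14, 150, 152 and 158 TPM at D28, and 159, 180 and 182 TPM at D28WO. OAS1 differed from untreated cells by 4.01, 3.82, 4.22 and 4.40 on the log2 scale in the order of the groups (adjusted p = 5.04e-14 for washout). OAS3 was at 22.2, 21.2 and 19.4 TPM untreated, 127, 128 and 138 TPM at D3, 135, 141 and 154 TPM at D14, 145, 151 and 157 TPM at D28, and 148, 153 and 157 TPM at D28WO. The D3 libraries of OAS3 lay below the D28 and D28WO ones, other pairs of treated groups overlapped, and none overlapped the untreated libraries. The log2 fold change of OAS3 was the lowest of the family at each time, from 2.59 at D3 (adjusted p = 2.88e-12) to 2.81 at D28WO.

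**Figure D2:**
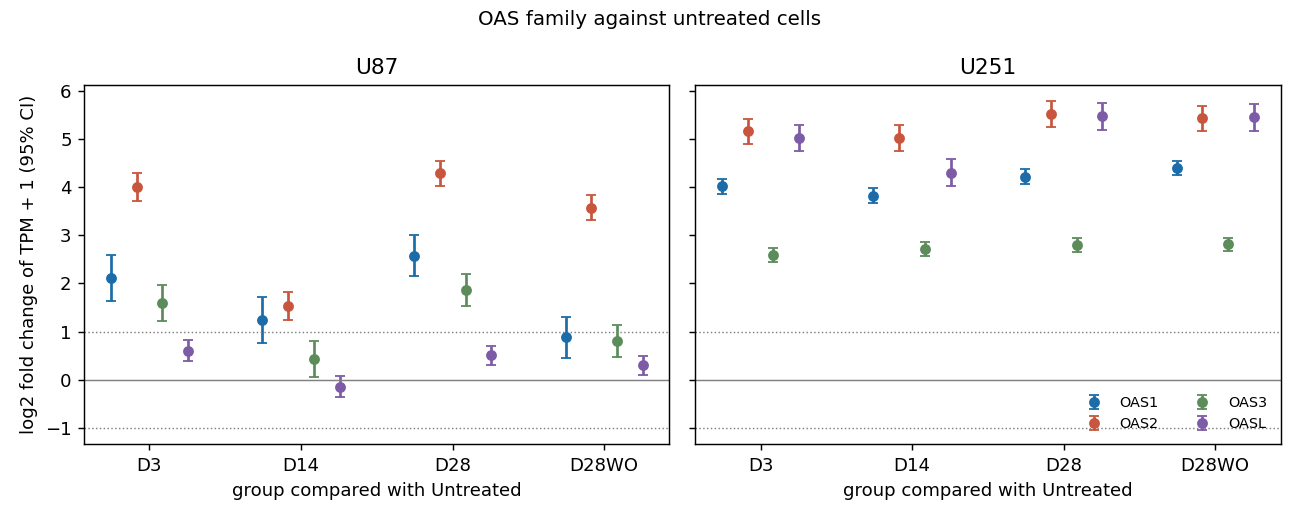
Log2 fold change of TPM + 1 against untreated cells of the same line, with its 95% interval from limma, for D3, D14, D28 and D28WO in U87 (left) and U251 (right); dotted lines mark the fold limit of 1 in each direction. In U251 the 16 points lie between 2.59 and 5.52, and in U87 they run from -0.14 for OASL at D14 to 4.28 for OAS2 at D28.

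The marker list for glial and neural cells moved with IFN-γ in U251 as well. Its summed level was 3734 to 3807 TPM in untreated libraries, 1519 to 1858 TPM at D3, 2600 to 3006 TPM at D14, 1694 to 1935 TPM at D28 and 2124 to 2197 TPM at D28WO. The leukocyte list (6 genes) summed to 136 to 144 TPM untreated and 82.9 to 173 TPM over the treated libraries, the endothelial list (3 genes) was at 26.6 to 38.4 TPM untreated and 2.45 to 3.46 TPM at D3, and the epithelial list (3 genes) was at 64.0 to 68.3 TPM untreated and 28.2 to 35.8 TPM at D3. In the endothelial list, CDH5 averaged 27.6 TPM untreated and 0.565 TPM at D3, VWF 3.16 and 1.52 TPM, and PECAM1 0.659 and 0.848 TPM. At D14 that list was at 9.79 to 21.4 TPM. In U87 the glial and neural list was at 2077 to 2293 TPM untreated and 1720 to 1874 TPM at D28WO. Within it, VIM averaged 1307 and 1022 TPM and CD44 686 and 521 TPM, and NES, SOX2 and S100B were also lower at D28WO. OLIG2 (7.16 and 26.7 TPM), GFAP (4.84 and 14.2 TPM) and CHI3L1 (124 and 211 TPM) were higher there. The part of these movements in the OAS results was not tested.

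Continued exposure was followed through D14 against D3 and D28 against D14. In U87, OAS2 fell by 2.47 from D3 to D14 on the log2 scale (adjusted p = 1.60e-06) and OAS3 by 1.16 (adjusted p = 0.00358), so 2 of 4 members were called lower, against 2.05% of all genes. OAS1 was 0.87 lower (adjusted p = 0.0621) and OASL 0.75 lower (adjusted p = 0.00186), short of the limits. The D14 libraries lay below both D3 libraries for each of the 4 members. The share of all genes separated in this way was not computed, so nothing is read from it. Without D14 replicate 2 the difference of OAS3 was -0.91, below the fold limit, and in a fit of these 4 libraries alone neither OAS2 (adjusted p = 0.0749) nor OAS3 (adjusted p = 0.154) was called. From D14 to D28, OAS1 (1.32, adjusted p = 0.00401), OAS2 (2.75, adjusted p = 2.32e-07) and OAS3 (1.44, adjusted p = 0.000366) rose again, against 1.78% of all genes called higher. OASL was 0.65 higher (adjusted p = 0.00281). Without D14 replicate 3 the call of OAS1 was lost (adjusted p = 0.0545).

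In U251, OASL was the member with the largest differences at both steps. From D3 to D14 no member was called lower by limma (3.29% of all genes were) and 2 had an unadjusted p under 0.05, with OASL 0.72 lower (adjusted p = 0.00109), OAS1 0.19 lower (adjusted p = 0.0619), OAS2 0.14 lower (adjusted p = 0.45) and OAS3 0.13 higher (adjusted p = 0.171). From D14 to D28, OASL rose by 1.17 (adjusted p = 2.36e-05), where 4.23% of all genes were called higher. OAS1 (0.39, adjusted p = 0.00108) and OAS2 (0.50, adjusted p = 0.00993) were higher by less than the fold limit, and OAS3 differed by 0.077 (adjusted p = 0.468).

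Whether the change outlasted IFN-γ was asked by comparing D28WO with D28 cells. In U87, OAS1 fell by 1.69 on the log2 scale (adjusted p = 0.000247), to libraries that all lay far below the D28 ones. OAS3 fell by 1.05 (adjusted p = 0.000946), which became -0.96 without D28WO replicate 1 and -0.99 without D28WO replicate 2, just inside the fold limit. OAS2 was 0.71 lower (adjusted p = 0.00197), and its groups did not overlap. OASL was 0.20 lower (adjusted p = 0.147), also without overlap. The 2 members called lower compare with 2.42% of all genes tested.

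In U251, no member was called between D28WO and D28, where 8.14% of genes were called lower and 1.12% higher by the same limma test. At an unadjusted p under 0.05, OAS1 alone differed, by 0.18 with all washout libraries above all D28 libraries (adjusted p = 0.0704). The 95% interval of the difference ran from 0.029 to 0.33 for OAS1, from -0.36 to 0.17 for OAS2, from -0.12 to 0.16 for OAS3 and from -0.30 to 0.25 for OASL, so a fall or a rise past the fold limit lies outside each interval. OAS2 differed by -0.095, OAS3 by 0.016 and OASL by -0.024, and their groups overlapped. The median of all genes was 0.12 lower in D28WO than in D28, and relative to it the members differed by 0.025 to 0.30.

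Against D14, the last time shared by both 28-day arms, D28WO cells of U87 had more OAS2 (2.04, adjusted p = 1.61e-06), the 1 member called, where 6.30% of genes were called higher. OAS1 was 0.36 lower (adjusted p = 0.257), OAS3 0.39 higher (adjusted p = 0.124) and OASL 0.44 higher (adjusted p = 0.0071). In U251, OASL was called higher than at D14 (1.14, adjusted p = 2.09e-05), where 1.78% of genes were. OAS1 (0.57, adjusted p = 3.79e-05) and OAS2 (0.40, adjusted p = 0.0251) were higher by less than the fold limit, and OAS3 differed by 0.093 (adjusted p = 0.337).

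**Figure D3:**
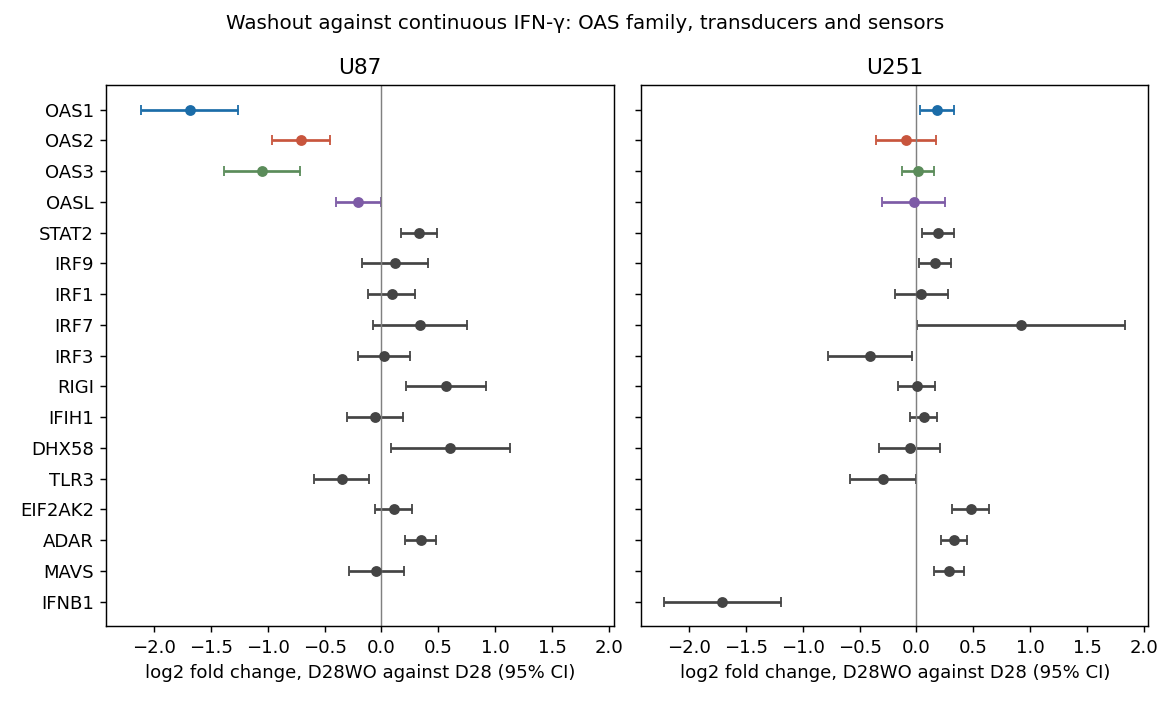
Log2 fold change of TPM + 1 between D28WO and D28 cells, with its 95% interval from limma, for the OAS family (coloured), transducers, sensors and IFNB1 (grey) in U87 (left) and U251 (right); a gene not tested in a line has no point. In U87, OAS1 at -1.69 lies farthest left while IRF1 lies at 0.088, and in U251 IFNB1 lies at -1.71 while the OAS genes lie between -0.095 and 0.18.

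Ratios between members within a library describe the make-up of the response after washout. The log2 ratio of OAS1 to OAS2 within a library was -0.42 ± 0.090 at D28 and -1.40 ± 0.13 at D28WO, and that of OAS1 to OASL was -0.52 ± 0.17 and -2.01 ± 0.17 (SD, n = 3 each). The exact two-sided permutation test gave p = 0.1 for both, as for the other U87 ratios, the smallest p that 3 against 3 libraries allow (0.12 after Benjamini-Hochberg adjustment over 12 ratios). The ratios of a line come from the same 4 genes and were not set against ratios of other genes. In U251 the shifts were smaller: the ratio of OAS1 to OAS2 was 0.0093 ± 0.020 at D28 and 0.28 ± 0.042 at D28WO. The exact permutation p in U251 was 0.1 for the ratios of OAS1 to each other member and of OAS2 to OAS3, 0.3 for OAS2 to OASL and 0.8 for OAS3 to OASL.

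In U87, OASL went from 66.1% of the family's TPM in untreated cells to 29.2% ± 1.49 at D28 and 42.9% ± 1.83 at D28WO. OAS2 held 3.46% ± 0.422 untreated, 27.1% ± 0.119 at D28 and 27.9% ± 1.12 at D28WO. OAS1 held 20.2% ± 1.39 at D28 and 10.3% ± 0.851 at D28WO, the same share as in untreated cells (10.2% ± 2.57) to within the SD. In U251 at D28 the 4 genes were near equal, at 26.2% for OAS1, 26.1% for OAS2, 25.8% for OAS3 and 21.9% for OASL. OASL held 13.3% ± 0.927 at D14, the lowest of its treated shares.

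**Figure D4:**
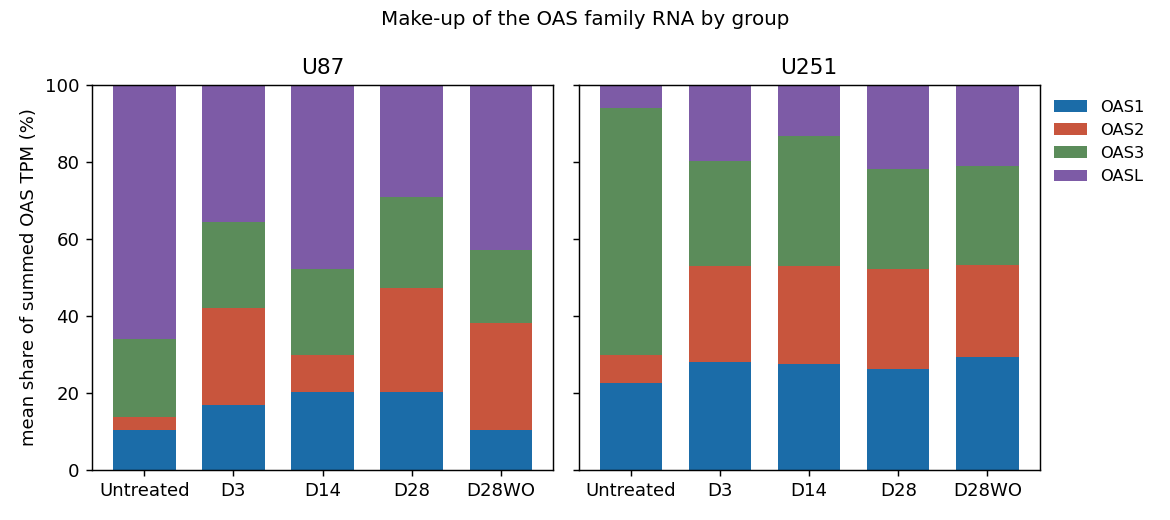
Mean share of each member in the summed TPM of the OAS family, in percent, for the 5 groups of U87 (left) and U251 (right). In U87 the OASL share is 66.1% untreated and 29.2% at D28, and in U251 the OAS3 share goes from 64.2% untreated to 25.8% at D28.

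Ordered by level, the groups of U87 ran D28, D3, D14, D28WO and Untreated for OAS1, and D28, D3, D28WO, D14 and Untreated for OAS2 and OAS3. For OASL the order was D3, D28, D28WO, Untreated and D14. Several neighbours in these orders were not separated at an adjusted p of 0.05: D28 and D3 for each member, D14 and its neighbours on both sides for OAS1, and D3 and D28WO for OAS2 (adjusted p = 0.063). The same held for D14 and its neighbours on both sides for OAS3, and for D28WO with D28 and D14 with Untreated for OASL. In U251 the top group was D28WO for OAS1 and OAS3 and D28 for OAS2 and OASL, not separated from the next group. Among the treated groups of U251, no neighbours in the order of OAS1, OAS2 or OAS3 were separated. OASL differed between D28WO and D3 (adjusted p = 0.0329) and between D3 and D14.

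Of the 5 listed transducers that carry interferon signals to these genes, 4 were called higher in U87 at D3, D28 and D28WO, where 5.85%, 6.77% and 12.8% of all genes were. At D14, 0 were called and 1 had an unadjusted p under 0.05 in limma, beside 1.89% of all genes called higher, and nothing is read from that 0. Their median log2 fold change was 1.26, 0.24, 1.28 and 1.61 in the order of the groups. IRF1, the IFN-γ-induced factor, was 1.84 higher at D28 and 1.93 higher at D28WO. Between D28WO and D28, 0 transducers were called and 1 had an unadjusted p under 0.05, beside 2.42% of all genes called lower, with IRF1 at 0.088 (adjusted p = 0.572) and STAT2 at 0.33 (adjusted p = 0.00878). At D14 none of IRF1 (-0.13, adjusted p = 0.488), IRF9 (0.075, adjusted p = 0.812) and STAT2 (0.50, adjusted p = 0.01) was called against untreated cells.

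In U251, 3 of 5 transducers (STAT2, IRF9 and IRF1) were called higher at each of the 4 times, beside 9.72%, 4.72%, 11.9% and 4.07% of all genes, and the list's medians were 1.52, 1.02, 1.51 and 1.70. IRF1 was 2.04 higher at D3 and 1.08 higher at D14, and it rose by 1.00 from D14 to D28 (adjusted p = 1.9e-05). IRF7, which amplifies type I interferon, was 0.01 higher at D3 and was not called at any time. Between D28WO and D28, 0 transducers were called, beside 8.14% of all genes called lower and 1.12% higher. At an unadjusted p under 0.05 in limma, 4 differed: STAT2, IRF9 and IRF7 were higher and IRF3 was lower. The share of all genes at that limit is not given.

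Some of the sensors of viral RNA or DNA were called higher with IFN-γ. In U87, of 8 tested from a list of 9, 3 were called higher at D3, 1 at D14 and 4 in each of the later groups, beside 5.85%, 1.89%, 6.77% and 12.8% of all genes. Those called at D28 include ZBP1, which was listed at 0 in the untreated libraries. It passed the filter of 0.5 TPM only through treated groups. The cytoplasmic sensor IFIH1 (MDA5) was 2.01 higher at D3 and 2.08 higher at D28WO, and the endosomal sensor TLR3 2.15 and 2.18 higher. DHX58 was the sensor called at D14 (1.12, adjusted p = 0.0372). Between D28WO and D28, 0 sensors were called (2.42% of all genes were called lower). At an unadjusted p under 0.05 in limma, 4 differed: ADAR, DHX58 and RIGI were higher and TLR3 was lower. IFIH1 was at -0.056 and RIGI, the sensor that OASL assists, at 0.57 (adjusted p = 0.0313). In U251, 6, 4, 5 and 6 of 9 sensors were called higher at D3, D14, D28 and D28WO, beside 9.72%, 4.72%, 11.9% and 4.07% of all genes, RIGI by 2.31, 1.86, 2.50 and 2.50. ZBP1, called there at D3, D28 and D28WO, averaged 0.313 TPM in untreated U251 cells, below the filter of 0.5 TPM.

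PDE12 and AKAP7, which degrade 2-5A, and ABCE1, a ribosome-recycling factor that also restrains the pathway, were tested in both lines, and 0 of 3 were called in either direction at any time against untreated cells. Beside the 1.89% to 12.8% of all genes called higher in U87 and 4.07% to 11.9% in U251, 0 of 3 is no result about these genes. By adjusted p alone, 1 of them was higher at D28WO in U87 (AKAP7, 0.64, adjusted p = 0.00781). In U251, PDE12 (0.43, adjusted p = 0.0017) and AKAP7 (0.55, adjusted p = 0.0019) were higher at D3, AKAP7 was 0.37 higher at D28WO (adjusted p = 0.029), and ABCE1 was 0.26 lower at D28 (adjusted p = 0.018).

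Interferon genes themselves differed between the tables. In U87, none of 8 passed the filter of 0.5 TPM, and IFNB1, the gene of interferon-β, was listed at 0 in all 13 libraries. In U251, 2 of 8 passed it. IFNB1 was listed at 0 in the untreated libraries and was at 1.09 to 2.21 TPM at D3, 3.24 to 3.81 TPM at D14, 6.26 to 8.59 TPM at D28 and 0.927 to 2.05 TPM at D28WO. It passed the filter only through the treated groups, so its levels against untreated cells are given with no test. IFNL1, a type III interferon, passed the filter only through D28, so its level is given with no test: it was at 1.91 to 3.53 TPM at D28, was listed at 0 in the untreated libraries and did not exceed 1.23 TPM in the other groups. Between D28WO and D28, IFNB1 fell by 1.71 (adjusted p = 0.00013), in the comparison in which 8.14% of all genes and 0 of 4 OAS genes were called lower. Of 6 interferon receptor genes, IFNLR1 in U87 at D28 was the 1 called against untreated cells (1.64, adjusted p = 0.00121), beside 6.77% of all genes. Over all comparisons with untreated cells, 1.89% to 12.8% of genes were called higher in U87 and 4.07% to 11.9% in U251. Nothing is read from 1 call over these comparisons. The gene IFNLR1 was low, averaging 0.654 TPM untreated and 4.16 TPM at D28. It fell by 1.63 on washout (adjusted p = 0.00154).

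Over the libraries of a line, members correlated with each other at Pearson r of 0.73 to 0.93 in U87 (13 libraries) and 0.98 to 0.997 in U251 (15 libraries). The points share groups and untreated controls, so these values describe the course over groups. The genes most like each member, among 19573 genes in U87 and 20093 in U251 with a mean of at least 1 TPM, differed between members in U87. OAS1 was followed by EGR2 (0.978), SEPTIN6 (0.972) and ACBD3 (0.967). OAS2 was followed by HAPLN3 (0.989), PDCD1LG2 (0.987) and IFIH1 (0.987), which stayed high at D28WO: PDCD1LG2, which encodes the checkpoint ligand PD-L2, averaged 68.9 TPM at D28 and 57.8 TPM at D28WO. OAS3 was followed by DPP4 (0.971), RBM22 (0.967) and TNFSF10 (0.967), and OASL by LINC02575 (0.949), DDO (0.948) and AIM2 (0.946). EGR2, a zinc-finger factor, averaged 27.8 TPM untreated and then 64.0, 43.1, 75.9 and 35.8 TPM in the treated groups, the order of OAS1.

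In U251, the same few genes stood next to several members. IFI44 and IFI44L, both interferon-induced, and BST2, which tethers virus particles, filled the places for OAS1 and OAS3 (0.991 to 0.996). OAS2 was followed by IFI44L, IFI44 and IGFBP4 (0.993), and OASL by RIGI (0.995) and IFIH1 (0.993). BST2 averaged 17.9 TPM untreated and then 160, 186, 197 and 227 TPM in the D3, D14, D28 and D28WO groups. RIGI averaged 18.2, 94.3, 68.7, 107 and 108 TPM in that order of groups, with the dip at D14 that OASL also had.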

How the data were processed

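The authors deposited TPM values, 1 table per line. Per the labels and the study's methods, RNA was prepared with a TruSeq kit and sequenced as read pairs, reads were trimmed with Trim Galore, mapped by STAR (GRCh38) and assigned to genes by featureCounts. How TPM was computed from the counts, and how reads that match more than 1 of these related genes were counted, is not given in the sources used here. TPM keeps no depth, so no limit is given for a gene listed at 0. Left out of U87 were 2 columns that share a name.

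Values were taken as log2(TPM + 1), so fold changes of low genes are understated. The 22918 genes of U87 and 23667 of U251 that averaged 0.5 TPM or more in the line were fitted with limma 3.58.1 in R 4.3.3 (lmFit, eBayes with a trend), the 5 groups of a line in 1 fit. A call needed both an absolute log2 fold change over 1 and, with Benjamini-Hochberg adjustment over all tested genes, p under 0.05. Shares of all genes are given at these limits only. Counts at an unadjusted p under 0.05, or by adjusted p alone, have no such share beside them, and nothing is read from their size. The lines were never tested against each other. The replicates are described as independent cultures. Ratios between members were compared with exact permutation tests in scipy 1.17.1. Motifs were searched in RefSeq promoters, where OAS1 and OAS3 matched by symbol, 2 of 4 members. Named genes are the members, the genes of the pathway lists, and the 3 genes with the highest correlation to each member. The members and lists were chosen with earlier results of these data known, and some genes of the pathway lists and of the correlated genes are not reported here. Alternatives were median-ratio size factors, quantile normalization, array weights, a replicate block, fits of the 2 compared groups alone, calls by adjusted p alone, a filter at 1 TPM or none, a pseudocount of 0.1, and fits with each library left out.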

Additional observations from a re-analysis of the deposited data

Results flagged for a closer look

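The washout difference of OAS1 had opposite signs in the lines, and it was called in U87 only. Between D28WO and D28 it fell by 1.69 on the log2 scale in U87, with all 3 washout libraries below all D28 libraries, and was 0.18 higher in U251 (limma adjusted p = 0.0704), with all 3 washout libraries above all D28 libraries. Between D28WO and D14 the difference was -0.36 in U87 (limma adjusted p = 0.257) and 0.57 in U251 (adjusted p = 3.79e-05, below the fold limit), again with every library of each group on its side. Neither was called. The difference between the lines was not tested, because their tables were normalized separately.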

How the results depend on the processing

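In U251, 189 of 192 recomputed counts of called members stayed within 1.5 times the reported count, and 731 of 736 member values kept their direction and side of the limits. In U87 these were 165 of 176 and 659 of 672. Many of these alternatives left out a library from a group outside the comparison. Such fits, and those with another filter or with the 2 groups alone, keep the fold change and can alter only its p. The totals therefore do not measure how stable the results are. In U87, the count of members called at D14 against Untreated was 2, but 1 with quantile normalization, 0 with only the 2 groups compared, and 1 to 2 when single libraries were left out. D14 against D3 gave 2, but 0 with only the 2 groups compared, a fit with fewer libraries, and 1 to 2 when single libraries were left out. D28WO against Untreated gave 1, 4 with the adjusted p alone, and 1 to 2 when single libraries were left out (2 without Untreated replicate 2). D28WO against D28 gave 2, and 1 to 2 when single libraries were left out. With the adjusted p alone, D28WO against D14 gave 2 in U87 in place of 1, D3 against Untreated, D28 against Untreated and D28 against D14 each gave 4 in place of 3, and D14 against D3 and D28WO against D28 each gave 3 in place of 2. The same criterion in U251 gave 1 in place of 0 for D14 against D3, 3 in place of 1 for D28 against D14, and 3 in place of 1 for D28WO against D14. The share of all genes past the adjusted p alone is not given, so the size of these counts cannot be judged. The sign turned only for differences that were not called. OASL at D14 against Untreated in U87 became 0.0059 without D14 replicate 3 (-0.29 to 0.0059 over the libraries left out). In U251 between D28WO and D28, OAS3 became -0.039 with quantile normalization, -0.011 without D28 replicate 1 and -0.0033 without D28WO replicate 3 (-0.011 to 0.044 over the libraries left out), and OASL became 0.059 with median-ratio size factors and 0.056 without D28WO replicate 1 (-0.086 to 0.056). The cause was not tested. Libraries with the same replicate number did not deviate together (correlation of deviations -0.058 to 0.047 over 23 pairs in U87, -0.037 to 0.048 over 30 pairs in U251). With the replicate number as a block, each of the 16 counts stayed as it was, for example 3 at D28 in U87 and 4 at D28 in U251. The depth of each library is not known, so the counting error of low values such as IFNL1 cannot be given.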
